A study of Mus musculus with 7 samples.

Results

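Imprinted genes are read from only the maternal or only the paternal copy, and 36 of them from the main mouse imprinted clusters were looked up by gene symbol in the deposited expression table. Of these, 35 had a row among the 22680 genes of the table, and Mirg was not analysed here. RNA sequencing was run on cells sorted from C57BL/6 fetal liver taken 13.5 days post coitum. There were 3 libraries of Uhrf1-/- LSK cells, 1 library of wild-type LK cells and 3 libraries of wild-type LSK cells. LSK cells lack lineage markers, carry Sca-1 and c-Kit, and hold the hematopoietic stem cells and multipotent progenitors, while LK cells are c-Kit-positive and Sca-1-negative, and further along in differentiation. The labels name the mutant genotype only as Uhrf1-/-, without saying which part of the gene was deleted, in which cells, or how many fetuses entered a library.

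At an imprinted cluster, 1 parental copy carries DNA methylation laid down in the germ line, at an imprinting control region that sets which copy of the neighbouring genes is read. The zinc finger protein Zfp57 and its partner Trim28 bind the methylated copy, and Uhrf1, which recognises hemimethylated DNA, brings the maintenance methyltransferase Dnmt1 to it at each round of replication. In fetal and adult blood stem cells, H19, Igf2, Cdkn1c, Dlk1 and Meg3 are known as imprinted genes tied to quiescence and growth control. The values below are FPKM, read fragments per length of gene and library size, and they sum the reads of both parental copies, so they do not show from which copy a transcript came.

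The libraries were not equal in make-up. Scaled counts summed to between 15556959 and 21017402 per library. The FPKM values summed to 943583 to 994973 in the Uhrf1-/- LSK libraries, to 921942 in the LK library and to 570509 to 1128572 in the wild-type LSK libraries, with wild-type replicate 2 lowest. Uhrf1 itself stood at 10.2, 8.78 and 18.6 FPKM in Uhrf1-/- LSK cells, at 115.9 FPKM in LK cells and at 63.0, 66.8 and 112.8 FPKM in wild-type LSK cells, which follows the genotype labels. Of the 9 markers of stem and progenitor cells looked at (Kit, Ly6a, Cd34, Mecom, Hlf, Meis1, Procr, Slamf1 and Flt3), all were detected in every LSK library, and their sum was 277.4 to 360.5 FPKM in Uhrf1-/- LSK, 143.3 FPKM in LK and 413.6 to 601.6 FPKM in wild-type LSK cells, with no overlap between genotypes. Within that list Slamf1 rose and Flt3 fell in Uhrf1-/- LSK cells in limma with the replicate block (log2 fold changes 1.49 and -1.73, blocked adjusted p = 0.00090 and 0.00044, and 0.058 and 0.175 without the block). Kit, Cd34 and Hlf also lay wholly lower in Uhrf1-/- than in wild-type LSK libraries (log2 fold changes -0.55, -0.75 and -0.81). They did not pass in limma (adjusted p = 0.942, 0.876 and 0.441, blocked 0.388, 0.343 and 0.099). Ly6a, Mecom, Meis1 and Procr overlapped between genotypes. The part of these progenitor markers in the levels below was not tested. Ly6a, which encodes Sca-1, stood at 0.321 FPKM in the LK library and at 26.4 FPKM or more in every LSK library, as the sort labels say. Of the 9 stroma markers, Lum was listed at 0 in all 7 libraries, and the list summed to 2.35 to 2.99 FPKM in Uhrf1-/- LSK, 3.53 FPKM in LK and 2.03 to 3.62 FPKM in wild-type LSK cells. The 6 endothelial markers summed to 14.7 to 16.7 FPKM, 8.32 FPKM and 13.6 to 19.7 FPKM in the same 3 groups. Of these, Cdh5 lay wholly higher in Uhrf1-/- LSK libraries, at 1.60, 1.40 and 1.58 FPKM against 1.09, 0.873 and 0.542 FPKM in wild-type LSK. It did not pass (log2 fold change 0.47, limma adjusted p = 0.942, blocked 0.431), and the other endothelial markers overlapped.

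CpG dinucleotides are the sites at which Uhrf1 and Dnmt1 keep methylation. They were counted in windows running from 250 bases before to 50 bases after a listed gene start, taken from RefSeq on GRCm38.p6. A window was matched by gene ID for 30 of the 35 genes, all but H19, Cdkn1c, Peg10, Sgce and Impact, using the most upstream start listed. These windows held a median of 14 CpGs, with a range of 0 in Rian to 45 in Grb10, and the windows of 26995 other genes had a median of 7. The hexamer TGCCGC, the motif bound by Zfp57 when methylated, was found on either strand, as itself or as its reverse complement, in 7 of the 30 windows (23.3%), those of Grb10, Mcts2, Meg3, Nap1l5, Nnat, Plagl1 and Zim1, against 11.5% of the other genes' windows. The hexamer itself holds a CpG, and the part of the higher CpG count in this share was not tested. The windows were placed by gene starts and not by imprinting control regions. The windows of Phlda2 and Grb10, the tested imprinted genes whose levels did not overlap between genotypes, and of Dlk1, whose level differed most between replicate numbers, are printed 5′ to 3′ on the gene's strand, with each CpG in capitals. They lie at chr7:143502475-143502774 on the minus strand (26 CpGs), chr11:12037371-12037670 on the minus strand (45 CpGs) and chr12:109452573-109452872 on the plus strand (9 CpGs). The listed start need not be the outer limit of the gene. The windows of Phlda2 and Dlk1 lie inside the gene limits used here (143501545 to 143503145 and 109452485 to 109463336).
Phlda2: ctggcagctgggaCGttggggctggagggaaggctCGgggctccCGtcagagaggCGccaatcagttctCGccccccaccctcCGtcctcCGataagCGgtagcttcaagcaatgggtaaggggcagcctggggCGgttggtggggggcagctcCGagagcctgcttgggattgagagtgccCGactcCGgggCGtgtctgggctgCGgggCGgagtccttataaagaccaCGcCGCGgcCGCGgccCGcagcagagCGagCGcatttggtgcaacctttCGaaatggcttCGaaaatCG
Grb10: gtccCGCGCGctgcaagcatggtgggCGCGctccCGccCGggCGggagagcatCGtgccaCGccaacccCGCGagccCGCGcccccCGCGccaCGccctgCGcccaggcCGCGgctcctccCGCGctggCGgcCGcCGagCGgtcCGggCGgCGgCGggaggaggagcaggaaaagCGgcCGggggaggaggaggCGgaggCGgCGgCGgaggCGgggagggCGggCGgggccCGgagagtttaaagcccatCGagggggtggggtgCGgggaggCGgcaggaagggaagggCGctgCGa
Dlk1: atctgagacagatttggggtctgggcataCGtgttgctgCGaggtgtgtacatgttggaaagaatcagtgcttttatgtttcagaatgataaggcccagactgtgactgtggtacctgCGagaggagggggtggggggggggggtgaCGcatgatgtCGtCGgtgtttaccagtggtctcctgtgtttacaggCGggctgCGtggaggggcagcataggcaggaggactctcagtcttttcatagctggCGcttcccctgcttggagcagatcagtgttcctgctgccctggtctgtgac

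**Figure D1:**
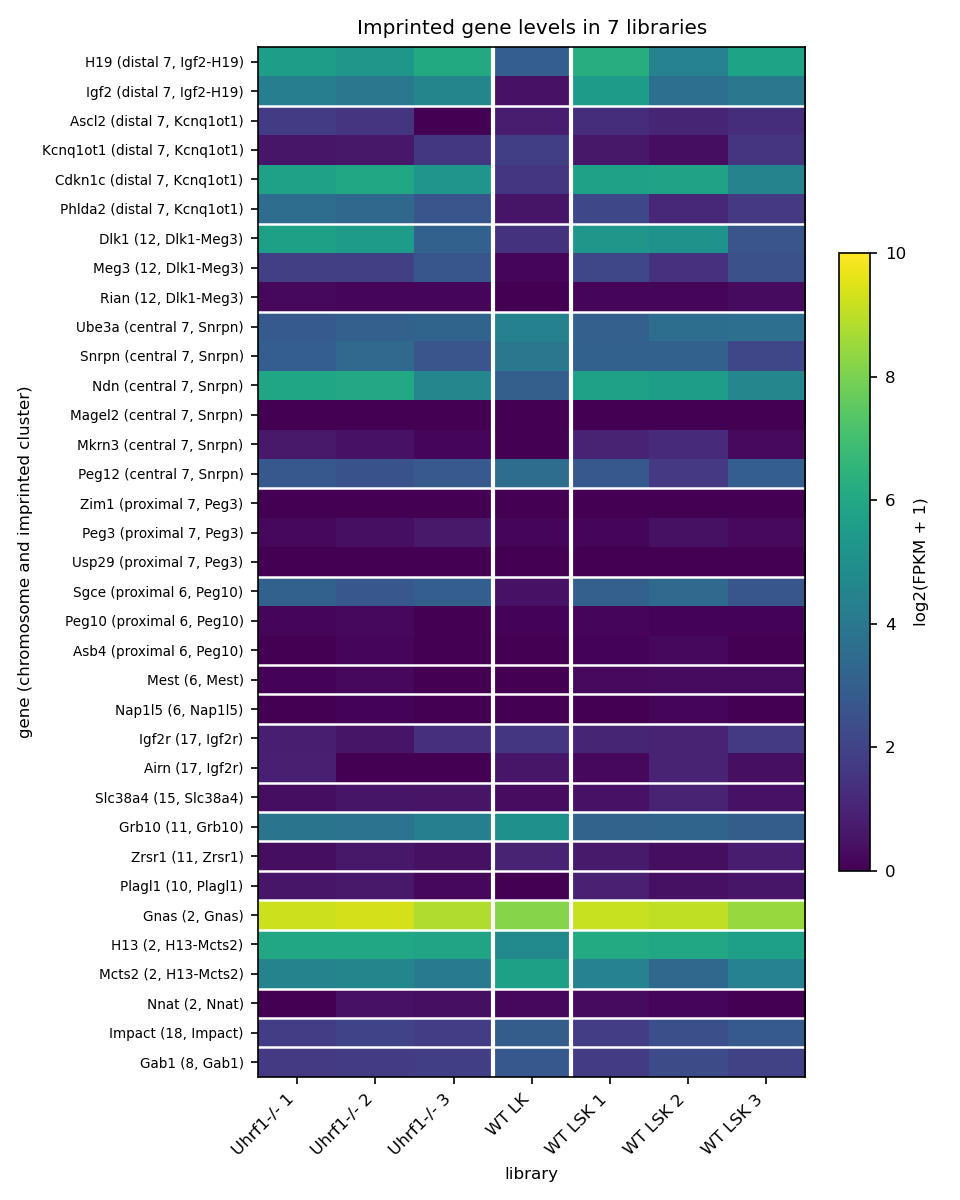
Level of 35 imprinted genes, as log2(FPKM + 1) in colour, in each of 7 libraries (columns, with white lines between the Uhrf1-/- LSK, wild-type LK and wild-type LSK groups), with the genes in rows by chromosome and cluster. Gnas was the most abundant in every library, and 16 genes had a mean under 1 FPKM over the 6 LSK libraries.

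Of the 35 genes, 19 had a mean of at least 1 FPKM over the 6 LSK libraries and entered the comparison of genotypes. It asked whether imprinted gene expression differs between Uhrf1-/- and wild-type stem and progenitor cells. Uhrf1 RNA was still listed at 8.78 FPKM or more in every Uhrf1-/- library, and its protein was not measured here. The fit was limma on log2(FPKM + 1) over 10608 genes. At an adjusted p under 0.05 it called 0 of the 19 imprinted genes, and 2 had an unadjusted p under 0.05, while 18 of all genes (0.17%) were called, 0.113% higher and 0.0566% lower in Uhrf1-/- cells. With the replicate number as a block it called 1 of the 19, Phlda2, beside 219 of all genes (2.06%, of which 1.23% higher and 0.83% lower in Uhrf1-/- cells). In 12 of the 19 the log2 fold change of Uhrf1-/- over wild-type LSK was positive, with a median of 0.17, where 46.1% of all tested genes were positive with a median of -0.03. The median of the 19 turned to -0.053 without wild-type replicate 2 and to -0.096 without wild-type replicate 3. On the scaled counts 13 of 25 imprinted genes tested were positive, with a median of 0.054, beside 4750 of 11929 genes with a median of -0.086. In 6 genes the Uhrf1-/- library was higher in every replicate pair (Phlda2, Grb10, Cdkn1c, Dlk1, Ndn and Gnas), and in 3 it was lower in every pair (Igf2r, Ube3a and Gab1), beside 13.9% and 18.3% of all tested genes. Some of these differences were small, at 0.012 on the log2(FPKM + 1) scale for Cdkn1c in pair 1 and for Ndn in pair 3. The 95% confidence interval of a fold change reached a median of 0.75 log2 units to either side of the value. This interval is not adjusted for the number of genes tested. Larger differences also went uncalled in the fit without the block, at 1.53 log2 units for Phlda2 and 0.88 for Grb10. With 3 libraries per genotype, differences of such sizes or smaller could thus be missed. In these bulk samples, fewer cells of a type and less RNA per cell cannot be told apart.

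**Figure D2:**
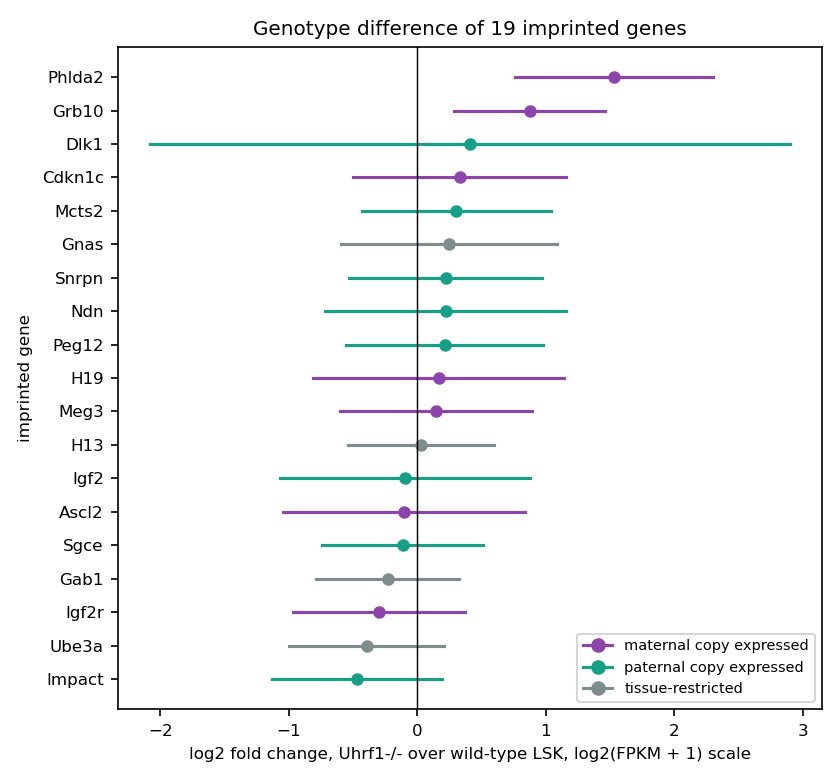
Log2 fold change of Uhrf1-/- over wild-type LSK cells on the log2(FPKM + 1) scale (horizontal axis) for 19 imprinted genes (vertical axis), with points for the limma estimate, lines for its 95% confidence interval, and colours for the copy known to be expressed. The intervals of Phlda2 (0.76 to 2.30) and Grb10 (0.29 to 1.46) lie above 0, and the other 17 cross it.

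The Kcnq1ot1 cluster of distal chromosome 7 holds growth-restraining genes read from the maternal copy. Phlda2 (Entrez gene 22113; chromosome 7, 143501545 to 143503145 of GRCm38, protein-coding) encodes a small pleckstrin homology protein known for limiting placental growth. Phlda2 stood at 11.001, 8.998 and 5.22 FPKM in Uhrf1-/- LSK replicates 1, 2 and 3, at 0.480 FPKM in LK cells and at 3.52, 1.18 and 2.15 FPKM in wild-type LSK replicates 1, 2 and 3. Every Uhrf1-/- library lay above every wild-type library, which was so for 489 of the 10608 tested genes (4.61%), while 6.16% lay wholly below and 0 of the 19 imprinted genes did. The mean was 8.41 ± 2.94 FPKM in Uhrf1-/- and 2.28 ± 1.18 FPKM in wild-type LSK cells (SD, n = 3 each; log2 fold change 1.53, SE 0.35, limma adjusted p = 0.158). The differences within pairs 1, 2 and 3 were 1.41, 2.20 and 0.98 on the log2(FPKM + 1) scale, and with the replicate block Phlda2 rose (SE 0.26, blocked limma adjusted p = 0.0023). The gene is short and its values rest on few reads, with scaled counts of 76.3, 60.5 and 32.3 in Uhrf1-/-, 3.85 in LK and 26.0, 8.63 and 14.3 in wild-type LSK libraries. The blocked call did not hold without replicate 2 (blocked limma adjusted p = 0.176) or on the scaled counts set to a common total (0.230), a repeat chosen after seeing the data.

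For the other genes of the cluster the genotypes overlapped. Cdkn1c, which encodes the cell cycle inhibitor p57 and lies 40485 bases away, stood at 52.1, 62.0 and 37.1 FPKM in Uhrf1-/- LSK, 1.99 FPKM in LK and 51.7, 53.96 and 21.2 FPKM in wild-type LSK libraries. Its log2 fold change was 0.33 (95% confidence interval -0.50 to 1.16, limma adjusted p = 0.943). Ascl2, a transcription factor of the trophoblast, stood at 2.46, 1.95 and 0 FPKM in Uhrf1-/- LSK, 0.740 FPKM in LK and 1.45, 1.06 and 1.496 FPKM in wild-type LSK libraries, so its listing at 0 in Uhrf1-/- replicate 3 sets the spread. The long noncoding RNA Kcnq1ot1, which silences the cluster on the paternal copy from which it is read, had a mean just under 1 FPKM and was not tested. Kcnq1ot1 stood at 0.501, 0.563 and 2.06 FPKM in Uhrf1-/- LSK, 2.62 FPKM in LK and 0.568, 0.287 and 1.93 FPKM in wild-type LSK libraries. Its scaled counts, not divided by length, were 1473, 1678 and 6537 in Uhrf1-/- LSK, 5637 in LK and 1584, 705 and 5223 in wild-type LSK libraries. It was high in replicate 3 of both genotypes and in LK cells, and the genotypes overlapped. Kcnq1, which Kcnq1ot1 overlaps on the other strand, was listed at 0 in all 7 libraries.

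Further genes around this cluster that are not among the 36 were set beside it after their values were seen. Tssc4 stood at 124.0, 100.8 and 100.5 FPKM in Uhrf1-/- LSK and at 86.0, 58.0 and 63.7 FPKM in wild-type LSK libraries, and Tspan32 at 165.8, 182.2 and 143.7 FPKM against 141.5, 140.7 and 103.1 FPKM. Neither passed (log2 fold changes 0.65 and 0.36, limma adjusted p = 0.839 and 0.942, blocked 0.286 and 0.665). Cd81, Slc22a18, Nap1l4 and Osbpl5 overlapped between genotypes, with log2 fold changes from -0.33 to 0.03.

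**Figure D3:**
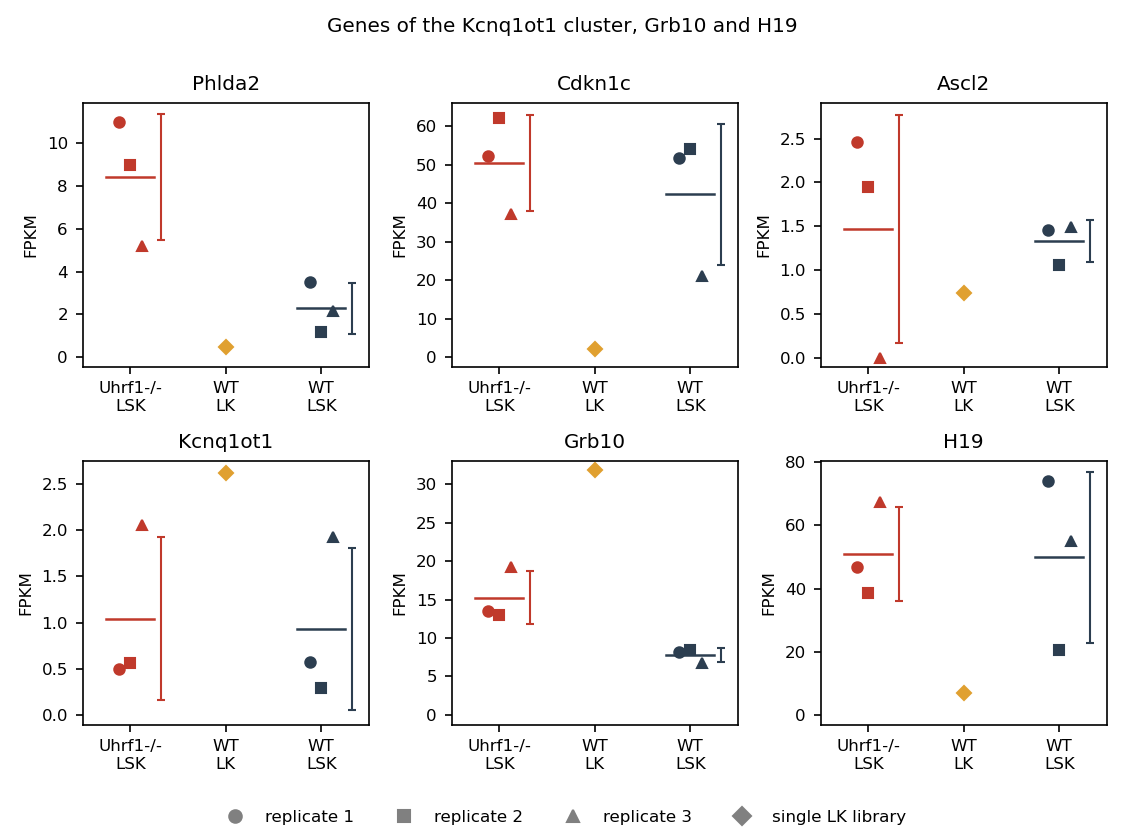
FPKM (vertical axes, linear) of Phlda2, Cdkn1c, Ascl2 and Kcnq1ot1 of the Kcnq1ot1 cluster and of Grb10 and H19, in Uhrf1-/- LSK, wild-type LK and wild-type LSK cells, with a symbol for each replicate number, bars for the mean and brackets for the mean ± SD (n = 3 each; 1 LK library). For Phlda2 (5.22 to 11.001 against 1.18 to 3.52 FPKM) and Grb10 (12.99 to 19.2 against 6.68 to 8.46 FPKM) the genotypes do not overlap.

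Grb10 was the other tested imprinted gene whose genotypes did not overlap. These 2 of the 19 are a share near that of all tested genes, of which 1142 of 10608 (10.8%) did not overlap in either direction. Grb10 (Entrez gene 14783; chromosome 11, 11930499 to 12037428, protein-coding) encodes an adaptor that dampens signalling from the insulin and insulin-like growth factor receptors and is read from the maternal copy in most tissues. Grb10 stood at 13.49, 12.99 and 19.2 FPKM in Uhrf1-/- LSK, at 31.8 FPKM in LK and at 8.11, 8.46 and 6.68 FPKM in wild-type LSK libraries. The mean was 15.2 ± 3.43 FPKM in Uhrf1-/- and 7.75 ± 0.940 FPKM in wild-type LSK cells (SD, n = 3 each). The log2 fold change was 0.88 (SE 0.27), and it did not pass in limma without the block (adjusted p = 0.402) or with it (adjusted p = 0.092). The blocked fit without replicate 1 called it (log2 fold change 0.98, adjusted p = 0.031), and those without replicate 2 or 3 did not (adjusted p = 0.274 and 0.917). On the scaled counts its log2 fold change was 0.94. There it lay just over the threshold with the block (blocked limma adjusted p = 0.05002), a repeat chosen after seeing the data, and at 0.478 without it. Of the 7 measured erythroid markers, 2 lay wholly higher in Uhrf1-/- than in wild-type LSK libraries, Epor and Klf1, and 5 overlapped. Epor, the erythropoietin receptor gene, stood at 15.3, 14.7 and 14.7 FPKM in Uhrf1-/- LSK, 67.4 FPKM in LK and 8.89, 5.22 and 1.38 FPKM in wild-type LSK libraries. With the block Epor rose in Uhrf1-/- LSK cells (log2 fold change 1.59, blocked limma adjusted p = 0.027, and 0.325 without the block). Klf1, an erythroid transcription factor, averaged 35.6 ± 2.89 FPKM in Uhrf1-/- and 16.5 ± 12.8 FPKM in wild-type LSK cells (SD, n = 3 each; limma adjusted p = 0.942). The means of the globin genes lay the other way, with 3.60 ± 4.72 FPKM in Uhrf1-/- and 9.30 ± 9.29 FPKM in wild-type LSK cells for Hbb-bs, 14.8 ± 12.7 and 29.8 ± 43.0 FPKM for Hba-a1 and 21.2 ± 9.32 and 34.3 ± 25.6 FPKM for Hba-a2 (SD, n = 3 each). The heme synthesis gene Alas2 stayed at or under 0.520 FPKM in the LSK libraries. The 7 markers summed to 85.5 to 100.6 FPKM in Uhrf1-/- LSK, 1390 FPKM in LK and 24.1 to 195.0 FPKM in wild-type LSK cells. The part of erythroid cells in the level of Grb10 was not tested.

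At the Igf2-H19 locus, genotypes overlapped. H19, a maternally read noncoding RNA, stood at 46.9, 38.5 and 67.3 FPKM in Uhrf1-/- LSK, 6.88 FPKM in LK and 73.98, 20.8 and 55.2 FPKM in wild-type LSK libraries. Igf2, the paternally read growth factor whose gene lies 72621 bases from H19, stood at 18.3, 15.2 and 22.4 FPKM in Uhrf1-/- LSK, 0.402 FPKM in LK and 44.1, 11.6 and 14.9 FPKM in wild-type LSK libraries. The wild-type values bracket those of the Uhrf1-/- libraries for both genes, with wild-type replicate 1 highest and replicate 2 lowest. The log2 fold changes were 0.17 (95% confidence interval -0.81 to 1.14) for H19 and -0.10 (-1.07 to 0.88) for Igf2, with limma adjusted p of 0.971 and 0.983. Since a control region shared by both genes sets their balance, the FPKM ratio of Igf2 to H19 was also taken in each library. The ratio was 0.390, 0.396 and 0.334 in Uhrf1-/- LSK, 0.0584 in LK and 0.596, 0.557 and 0.269 in wild-type LSK libraries. The genotypes overlapped, with an exact two-sided permutation p of 0.5 on the log2 ratio, where 3 against 3 libraries cannot give less than 0.1. Fetal hepatoblasts also express both genes at high levels. Of the 10 hepatoblast markers, Alb, Ttr, Serpina1a, Fgb and Krt8 stayed at or under 1.72 FPKM over the 6 LSK libraries. Apoa2 stood at 1.201 to 5.31 FPKM, Hnf4a at 2.295 to 4.44 FPKM, Afp at 0.741 to 3.73 FPKM and Apoa1 at 0.411 to 3.65 FPKM. The list summed to 52.0 to 54.9 FPKM in Uhrf1-/- LSK, 40.2 FPKM in LK and 39.1 to 50.3 FPKM in wild-type LSK cells, most of it from Krt18, at 30.5 FPKM or more in every LSK library, and neither the sum nor Krt18 overlapped between genotypes.

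In the Dlk1-Meg3 cluster of chromosome 12, the level of Dlk1 differed more between replicate numbers than between genotypes. Dlk1, a paternally read transmembrane protein of the Notch ligand family, stood at 49.7, 44.1 and 7.56 FPKM in Uhrf1-/- LSK replicates 1, 2 and 3, 1.76 FPKM in LK and 37.99, 33.7 and 5.14 FPKM in wild-type LSK replicates 1, 2 and 3. Meg3, the maternally read noncoding RNA of the cluster, stood at 2.75, 2.74 and 5.32 FPKM in Uhrf1-/- LSK, 0.0903 FPKM in LK and 3.32, 1.70 and 4.61 FPKM in wild-type LSK libraries. Replicate 3 thus had the lowest Dlk1 and the highest Meg3 among the LSK libraries of each genotype, and the FPKM ratio of Dlk1 to Meg3 was 18.05, 16.1 and 1.42 in Uhrf1-/- LSK against 11.4, 19.9 and 1.11 in wild-type LSK libraries. Rian, a host of small RNAs read from the same maternal transcription unit, stayed between 0.0978 and 0.215 FPKM in the LSK libraries and at 0.0113 FPKM in LK cells. The log2 fold change between genotypes was 0.41 (95% confidence interval -2.08 to 2.90) for Dlk1 and 0.15 (-0.60 to 0.89) for Meg3, with limma adjusted p of 0.968 and 0.964.

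The effect of the replicate number was tested as an F-test of its terms in the blocked limma fit, a test chosen after these values were seen. It called Dlk1 (adjusted p = 7.09e-06) and Ndn (adjusted p = 0.020), 2 of the 19 imprinted genes, beside 644 of all genes (6.07%), and not Meg3 (adjusted p = 0.144). Ndn, which encodes the growth suppressor necdin, stood at 57.8, 65.4 and 23.8 FPKM in Uhrf1-/- LSK, 7.13 FPKM in LK and 51.2, 46.7 and 23.6 FPKM in wild-type LSK libraries. The macrophage markers C1qa, C1qb and C1qc moved with the replicate number too, summing to 33.4, 35.4 and 2.12 FPKM in Uhrf1-/- LSK, 0.771 FPKM in LK and 146.5, 70.1 and 1.12 FPKM in wild-type LSK libraries. All 6 measured macrophage markers summed to 2.51 to 37.8 FPKM in Uhrf1-/- LSK and 1.12 to 149.3 FPKM in wild-type LSK cells. What sets replicate 3 apart is not given in the labels, and the part of macrophages in the level of Dlk1 or Ndn was not tested.

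**Figure D4:**
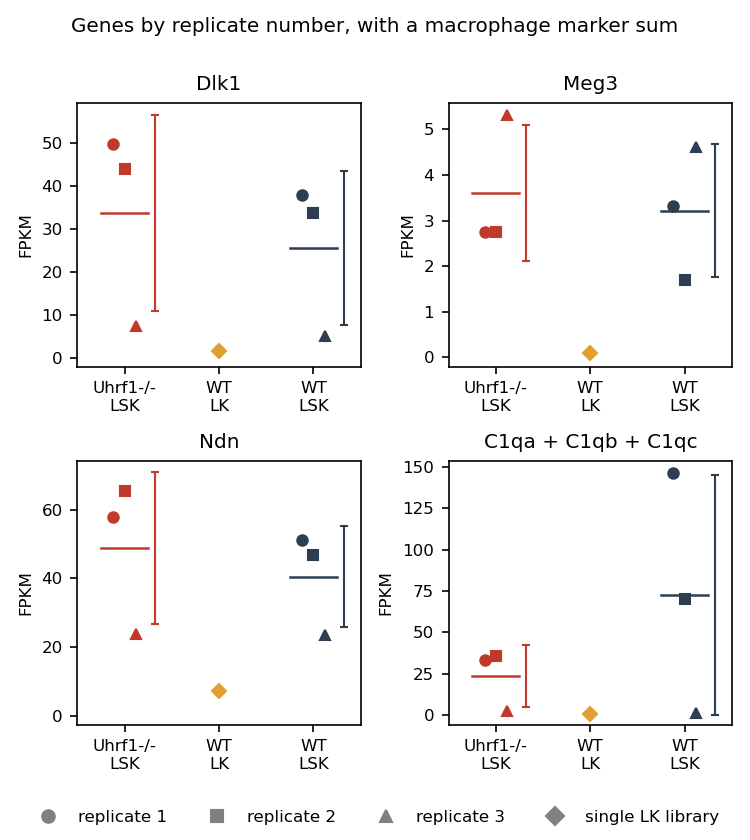
FPKM (vertical axes, linear) of Dlk1, Meg3 and Ndn and the summed FPKM of C1qa, C1qb and C1qc in Uhrf1-/- LSK, wild-type LK and wild-type LSK cells, with a symbol for each replicate number, bars for the mean and brackets for the mean ± SD (n = 3 each; 1 LK library). In both genotypes replicate 3 (triangles) has the lowest Dlk1, at 7.56 and 5.14 FPKM, the lowest Ndn and the highest Meg3.

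In the Snrpn cluster of central chromosome 7, where the genes of Prader-Willi and Angelman syndromes lie in humans, genotypes overlapped. Snrpn, which encodes a splicing protein, stood at 6.96, 9.58 and 5.18 FPKM in Uhrf1-/- LSK, 15.01 FPKM in LK and 7.65, 7.61 and 3.42 FPKM in wild-type LSK libraries. Peg12, a paternally read relative of the GSK3-binding Frat genes, stood at 5.71, 4.77 and 5.86 FPKM in Uhrf1-/- LSK, 11.0045 FPKM in LK and 5.73, 2.19 and 6.95 FPKM in wild-type LSK libraries. Both were highest in LK cells. Ube3a, a ubiquitin ligase whose imprint is known in neurons, stood at 6.14, 7.45 and 8.36 FPKM in Uhrf1-/- LSK, 20.2 FPKM in LK and 7.44, 11.2 and 11.4 FPKM in wild-type LSK libraries, and its log2 fold change was -0.39 (95% confidence interval -0.998 to 0.21, limma adjusted p = 0.942). Mkrn3, a ring finger protein gene, stood at 0.622, 0.404 and 0.112 FPKM in Uhrf1-/- LSK, 0.0193 FPKM in LK and 0.966, 1.31 and 0.188 FPKM in wild-type LSK libraries. Magel2 was listed at 0 in all 7 libraries.

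Among the tested imprinted genes outside these clusters other than Grb10, genotypes also overlapped. Gnas, which encodes the stimulatory G protein alpha subunit, stood at 604.3, 657.2 and 445.5 FPKM in Uhrf1-/- LSK, 286.8 FPKM in LK and 570.4, 529.7 and 349.5 FPKM in wild-type LSK libraries. H13, which encodes signal peptide peptidase, stood at 61.8, 63.1 and 56.7 FPKM in Uhrf1-/- LSK, 25.6 FPKM in LK and 68.2, 62.1 and 49.1 FPKM in wild-type LSK libraries. Mcts2, a paternally read retrogene that overlaps H13, stood at 20.9, 23.3 and 16.4 FPKM in Uhrf1-/- LSK, 50.7 FPKM in LK and 20.8, 9.36 and 20.7 FPKM in wild-type LSK libraries. The level of Mcts2 is uncertain, since reads of its parent gene Mcts1, at 53.4 FPKM or more in every library, could be counted to it. Sgce, which encodes epsilon-sarcoglycan, stood at 7.51, 5.52 and 6.98 FPKM in Uhrf1-/- LSK, 0.407 FPKM in LK and 7.37, 9.57 and 5.36 FPKM in wild-type LSK libraries. Its neighbour Peg10, which lies 101 bases away and is known to share its imprinted promoter region, stayed at 0.0232 to 0.174 FPKM in the LSK libraries. Levels of these divergent neighbours thus lay far apart in the same LSK libraries. Igf2r, the receptor that clears Igf2, stood at 0.775, 0.485 and 1.62 FPKM in Uhrf1-/- LSK, 1.98 FPKM in LK and 1.04, 0.944 and 2.24 FPKM in wild-type LSK libraries. Airn, the noncoding RNA that silences Igf2r on the paternal copy and overlaps it, ranged from 0 to 0.939 FPKM. Impact, a regulator of the amino acid sensor Gcn2, stood at 2.56, 3.06 and 2.53 FPKM in Uhrf1-/- LSK, 6.80 FPKM in LK and 2.497, 4.49 and 6.06 FPKM in wild-type LSK libraries. Gab1, a docking adaptor of receptor tyrosine kinases whose imprint is known from placenta, stood at 2.29, 2.31 and 2.64 FPKM in Uhrf1-/- LSK, 5.75 FPKM in LK and 2.35, 3.96 and 2.87 FPKM in wild-type LSK libraries. The limma adjusted p of these genes with and without the block was 0.481 or more.

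By parental copy, the 7 tested genes known to be read from the maternal copy had log2 fold changes of Uhrf1-/- over wild-type LSK from -0.30 to 1.53 with a median of 0.17, and the 8 read from the paternal copy from -0.47 to 0.41 with a median of 0.22. The other 4 are imprinted in only some tissues or isoforms (Ube3a, Gnas, H13 and Gab1), with a median of -0.10.

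The 16 imprinted genes under the expression minimum are low on average by that rule, and of them Kcnq1ot1 and Mkrn3 passed 1 FPKM in some libraries. Beside those given above, Plagl1, a zinc finger transcription factor whose promoter carries a maternal imprint, stood at 0.506, 0.603 and 0.164 FPKM in Uhrf1-/- LSK, 0.0243 FPKM in LK and 0.870, 0.376 and 0.522 FPKM in wild-type LSK libraries. Slc38a4, an amino acid transporter gene, ranged from 0.306 to 0.921 FPKM over the LSK libraries, Zrsr1, a retrogene of a splicing factor gene, from 0.277 to 0.758 FPKM, and the zinc finger gene Peg3 from 0.110 to 0.621 FPKM. Mest, a mesoderm gene of the hydrolase family, stood at 0.0743, 0.164 and 0.0159 FPKM in Uhrf1-/- LSK, 0 FPKM in LK and 0.184, 0.241 and 0.230 FPKM in wild-type LSK libraries, so the Uhrf1-/- values lay below the wild-type ones, all at or under 0.241 FPKM. Nnat stayed at or under 0.414 FPKM, Asb4 at or under 0.162 FPKM and Nap1l5 at or under 0.124 FPKM in the LSK libraries. Usp29 was above 0 in wild-type replicate 2 alone, at 0.0127 FPKM, and Zim1 was listed at 0 in all 7 libraries. With every gene above 0 FPKM in an LSK library tested, limma called 0 of 33 imprinted genes (3 with an unadjusted p under 0.05). That fit called 0 of all 16724 genes (967 with an unadjusted p under 0.05), Uhrf1 included, so it does not set the imprinted genes apart.

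Wild-type LK cells were set against wild-type LSK cells. Igf2, Cdkn1c, Dlk1, Sgce, H19, Ndn and Meg3 were lower in the LK library than in every wild-type LSK library, and Grb10 and Mcts2 were higher. Among the 20 genes compared below, H13, Gnas, Phlda2 and Ascl2 were also lower than in every wild-type LSK library. Snrpn, Peg12, Ube3a, Impact, Gab1 and Kcnq1ot1 were also higher, and Igf2r lay within the wild-type LSK range. The erythroid sum given above was also highest in the LK library, and its part in these differences was not tested. With 1 LK library there is no test, and the comparison is between these libraries. The difference from the mean of the 3 wild-type LSK libraries was -3.89 for Igf2, -3.74 for Cdkn1c, -2.88 for Dlk1, -2.55 for Sgce, -2.52 for H19, -2.28 for Ndn and -1.89 for Meg3 on the log2(FPKM + 1) scale. Each of these 7 genes was lower in LK cells than in any LSK library of either genotype. The difference was 1.91 for Grb10, 1.61 for Mcts2, 1.21 for Snrpn and 1.11 for Peg12, which were higher in LK cells than in any LSK library. Of 20 imprinted genes with an average of at least 1 FPKM over the LK level and the wild-type LSK mean, 5 were at least 2-fold higher in LK cells on this scale and 9 at least 2-fold lower, beside 1022 (9.6%) and 1329 (12.5%) of 10646 genes, or 22.1% in either direction. On the scaled counts, 3 of 24 imprinted genes were higher and 11 lower, beside 790 and 2185 of 11843 genes. Of the 20, 6 were under 1 FPKM on 1 side and entered through the other side. Kcnq1ot1 lay just past the limit at 1.0025 and Ube3a just short of it at 0.96. H13 (-1.18) and Phlda2 (-1.09) were also past it, and Ascl2, Gnas, Igf2r, Impact and Gab1 were within it.

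**Figure D5:**
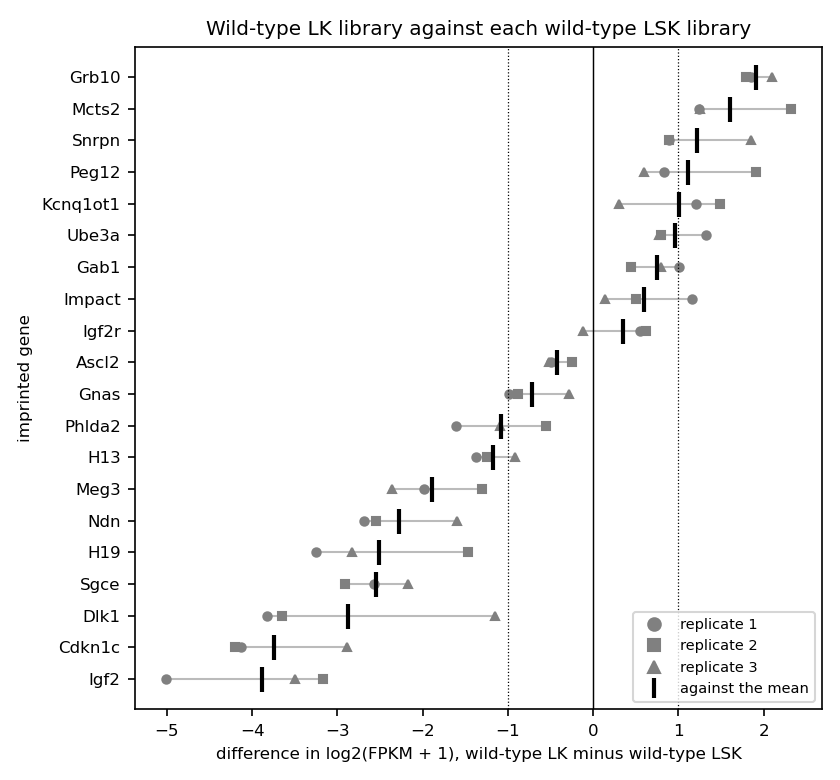
Difference in log2(FPKM + 1) between the wild-type LK library and each wild-type LSK library (grey symbols, 1 per replicate number) and their mean (black bar) for 20 imprinted genes, with dotted lines at a 2-fold difference. Igf2 (-3.89) and Cdkn1c (-3.74) are lowest in the LK library and Grb10 (1.91) highest, with all 3 comparisons on the same side.

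Among further imprinted genes that are not among the 36, 25 of 44 were tested and limma called 0 with or without the block (2 and 3 at an unadjusted p under 0.05). The hosts of member retrogenes or RNAs overlapped between genotypes. Commd1, in whose intron Zrsr1 lies, stood at 228.9, 252.9 and 122.9 FPKM in Uhrf1-/- LSK, 130.0 FPKM in LK and 221.7, 153.0 and 126.4 FPKM in wild-type LSK libraries. Blcap, the host of Nnat, stood at 7.10, 7.42 and 8.42 FPKM in Uhrf1-/- LSK, 7.82 FPKM in LK and 7.28, 14.3 and 11.6 FPKM in wild-type LSK libraries. Herc3, the host of Nap1l5, had a mean under 1 FPKM.

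Among 25 genes of proteins known to set or keep imprints, 17 were tested, and Uhrf1 was the only one called (log2 fold change -2.62, limma adjusted p = 0.018, blocked 4.16e-06). Without the block, its adjusted p was 0.061 without Uhrf1-/- replicate 2, and 0.086, 0.109 and 0.065 without wild-type replicates 1, 2 and 3. Dnmt1 stood at 64.2, 57.9 and 117.4 FPKM in Uhrf1-/- LSK, 63.2 FPKM in LK and 56.9, 35.5 and 79.4 FPKM in wild-type LSK libraries (limma adjusted p = 0.942). Trim28 was abundant, at 273.8, 234.7 and 331.1 FPKM in Uhrf1-/- LSK, 222.6 FPKM in LK and 257.2, 175.7 and 281.2 FPKM in wild-type LSK libraries. Zfp57 was under the minimum, at 0.490, 0.0666 and 2.14 FPKM in Uhrf1-/- LSK, 0.192 FPKM in LK and 0.432, 0.519 and 1.46 FPKM in wild-type LSK libraries, with its highest values in replicate 3 of each genotype.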

How the data were processed

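RNA was measured in 3 Uhrf1-/- LSK libraries, 1 wild-type LK library and 3 wild-type LSK libraries, grouped by their titles. The deposited table gives 2 values per library. The authors deposited FPKM, used here, and a value that the file headers call a count. The count values are not whole, so they were used as a scaled count signal, deposited by the authors with an unstated scaling, and no count model was run. TopHat2 2.0.9, Cufflinks 2.1.1 and mm10 are named per the submitters' processing notes. The annotation, strand use and counting options are unstated, and overlapping genes or near-identical copies may share reads.

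Genotypes were compared with limma 3.58.1 (R 4.3.3) on log2(FPKM + 1) over genes averaging 1 FPKM or more in the 6 LSK libraries, with trend and robust moderation, two-sided, and Benjamini-Hochberg adjustment over all tested genes at 0.05. Fold changes on this scale understate those of low genes. The fit was tested on simulated data. The replicate number was also used as a block: same-numbered libraries deviated together from their genotype's mean (r = 0.349, 0.332 and 0.645, each above the limit of 0.1). This pairing comes from the data, as no label explains the numbers. Other numbers correlated at -0.591 to 0.213. The closest libraries, Uhrf1-/- replicates 1 and 2, had a median chi-square of 3.73 over genes, where sampling noise gives 0.455, so no pair was merged as 1 library deposited again. This comparison, on scaled values, does not show that replicates are separate samples. No label says that they are separate animals, so the p-values cover only the spread among the libraries, which may be technical. Genes named are all the listed imprinted genes, with the value in every library for those reaching 1 FPKM in any. The imprinted genes and the other lists were chosen with earlier results of these data known. Coordinates and windows are RefSeq on GRCm38, the assembly called mm10. The alternatives were another pseudocount, no filter, median-of-ratios scaling, the scaled counts, the block, and leaving out libraries or pairs.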

Additional observations from a re-analysis of the deposited data

How the results depend on the processing

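Of 285 recomputed fold changes of the 19 tested imprinted genes, 253 kept their sign and their side of the threshold. Over all genes limma called 18, against 0 with no filter on low values (967 at an unadjusted p under 0.05), 36 on scaled counts, 219 with the replicate block and 238 with the block on scaled counts. The block's calls split into 131 higher and 88 lower in Uhrf1-/- cells, and those on scaled counts into 117 and 121. Leaving out a library gave 0 to 4 calls, and the blocked fit gave 656, 21 and 201 without replicates 1, 2 and 3. Of the imprinted genes 0 were called, against 1 with the replicate block, and the blocked fit gave 2, 0 and 1 without replicates 1, 2 and 3. The 2 were Phlda2 and Grb10. Of the further imprinted genes 0 were called, against 1 on scaled counts with the block and 1 in the blocked fit without replicate 1, each lower in Uhrf1-/- cells. The 1 called imprint regulator became 0 with no filter, and 0 to 1 when libraries were left out. Imprinted genes past 2-fold between LK and wild-type LSK cells numbered 14, and 12 to 15 under the alternatives. Leaving out a library turned the sign of 12 log2 fold changes: Ascl2 (-0.44 to 0.46), Cdkn1c (-0.096 to 0.56), Dlk1 (-0.45 to 1.24), H13 (-0.10 to 0.13), H19 (-0.36 to 0.53), Igf2 (-0.46 to 0.46), Mcts2 (-0.053 to 0.49), Meg3 (-0.14 to 0.39), Ndn (-0.12 to 0.66), Peg12 (-0.19 to 0.47), Sgce (-0.30 to 0.063) and Snrpn (-0.10 to 0.41). The blocked fit turned H19 to -0.18, Meg3 to -0.015, Peg12 to -0.11, Sgce to 0.18 and Mcts2 to -0.16 without replicate 2, Igf2 to 0.47 without replicate 1, and Ascl2 to 0.51 and H13 to -0.059 without replicate 3. H13 was also -0.046 on scaled counts, with or without the block. Phlda2 stayed at 1.19 to 1.80 and Grb10 at 0.62 to 1.03 when libraries or pairs were left out. The cause of these changes was not tested. Among genes named with values, the replicate block changed the calls of Phlda2, Epor, Slamf1 and Flt3. The edgeR test was not run, since whole reads were not recovered.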

Other observations

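Ins2, which neighbours Igf2 and is imprinted in the yolk sac, was uneven between libraries. Ins2 stood at 31.2, 19.3 and 0 FPKM in Uhrf1-/- LSK, 0 FPKM in LK and 323.4, 0.328 and 0 FPKM in wild-type LSK libraries. Zfp787, another gene of the further imprinted list, stood at 26.9, 21.2 and 17.3 FPKM in Uhrf1-/- LSK, 6.46 FPKM in LK and 16.98, 11.5 and 9.16 FPKM in wild-type LSK libraries (limma adjusted p = 0.748, blocked 0.126), and was named after its values were seen. Tssc4 and Tspan32, given above, also lay wholly higher. Peg13 of the same list lay wholly lower in Uhrf1-/- LSK, at 8.52, 8.27 and 8.23 FPKM against 10.4, 12.3 and 9.38 FPKM in wild-type LSK libraries. Peg13 did not pass (limma adjusted p = 0.942, blocked 0.637). Among the 25 tested genes of that list, only Zfp787, Tssc4, Tspan32 and Peg13 did not overlap between genotypes. Of all tested genes, 1142 of 10608 (10.8%) did not overlap in either direction. Cmah lay wholly lower too, at or under 0.343 FPKM in the LSK libraries and so under the expression minimum.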
